A study of Mus musculus with 4 samples.

Results

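Metallothioneins are small proteins that bind zinc and copper, and the Slc39a (ZIP) and Slc30a (ZnT) families are the membrane transporters that move zinc into and out of the cytosol. The genes described here are Mt1, Mt2, the metal-sensing transcription factor gene Mtf1, the importers Slc39a4, Slc39a8 and Slc39a14, and the exporters Slc30a1 and Slc30a10. They were chosen by name, through the RefSeq accession of each array probe, and make up 8 of 25093 genes tested and 13 of 41174 probes.

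Livers came from female CD-1 mice aged 8 weeks given Cux2 siRNA and killed 5 or 8 days later, or given a non-specific siRNA. CD-1 is an outbred stock, and Cux2 is a homeodomain transcription factor gene that is more highly expressed in female than in male mouse liver. The Cux2 siRNA livers of day 5 were pooled from 3 mice for replicate 1 and 2 mice for replicate 2, and those of day 8 from 2 mice for each replicate. The non-specific siRNA livers of 13 mice formed 2 pools of 6 or 7, per the design text, although each sample label gives 6 control mice. The labels do not tell which pool was on which array. All groups thus received an siRNA, and no untreated or vehicle livers were part of the comparison. Each of 4 two-colour arrays carried 1 Cux2 siRNA pool and 1 non-specific siRNA pool. The dyes were exchanged between replicates 1 and 2 of each day. Because livers were pooled, p-values reflect how far pools and dye orientations differ, not single mice. The 4 arrays drew on only 2 control pools, so their control channels are not all independent, and whether the 2 days shared a pool is not known. Whole liver was measured, so fewer cells of a type and less RNA per cell cannot be told apart.

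In liver, metallothioneins are made mainly by hepatocytes, and their genes are known to be induced by zinc, by glucocorticoids and by interleukin-6 in the acute phase response. The zinc-sensing factor MTF-1, encoded by Mtf1, binds metal response elements in the promoters of Mt1, Mt2 and Slc30a1. Slc39a14 is the importer known to be induced in hepatocytes by interleukin-6, and Slc30a1 exports zinc across the plasma membrane.

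Between 71.1% and 74.5% of probes were well above background per channel, and 0 spots were saturated. All 13 probes of the 8 genes were well above background in all 8 channel readings. Values are log2 ratios, Cux2 siRNA over non-specific siRNA, and passing means an adjusted p (Benjamini-Hochberg, limma, over all genes tested) under 0.05. The targeted gene Cux2 was lower in all 4 Cux2 siRNA pools: -1.91 and -1.70 for the day 5 pools, -1.07 and -1.20 for the day 8 pools. At day 8 (mean -1.13) it did not pass once day 8 replicate 2 was left out (adjusted p = 0.0659 in limma). Hepatocyte markers, which check the labelled tissue, were present in both channels. Over both days 1 of 7 rose (Hnf4a) and 1 fell (Ttr), where 31.1% of all genes passed. The sign of Alb (0.82, -0.77, 0.91 and -0.64), Ass1 (0.44, -0.85, 0.63 and -0.40) and Apoc3 (0.41, -0.58, 0.29 and -0.59) followed the replicate number. Replicate number is also the dye orientation. Apoa1 and Tdo2 were above 0 on all 4 arrays.

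Both hepatic metallothionein genes fell strongly at both days, and the regulator and the 5 transporters did not pass the test. Over both days Mt1 was 9.10-fold lower and Mt2 13.4-fold lower in Cux2 siRNA livers. At day 5 and at day 8 the same 2 of 8 genes passed, both falling. Of all genes tested, 16.8% passed at day 5 (9.42% falling) and 14.3% at day 8 (8.06% falling). Over both days, again, the same 2 of 8 fell, against 31.1% of all genes that passed and 16.3% that fell. With 8 genes, a count of 2 is too small to set against these shares, and the median of the 8 log2 ratios over both days was -0.03, against 0.00 for all genes. What set Mt1 and Mt2 apart was the size of the fall: over both days they held ranks 18 (Mt2) and 37 (Mt1) of 25093 genes ordered from the largest fall.

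Mt1, 1 of the pair of metallothionein genes used throughout the liver, was measured by 1 probe. Its normalized signal was 16703 and 28961 in the Cux2 siRNA pools of day 5 and 20707 and 12333 in those of day 8. The non-specific siRNA channels of the same arrays read 157760, 172060, 164140 and 190120. The highest Cux2 siRNA pool (28961) lay far below the lowest non-specific siRNA channel (157760). The share of all genes with channels apart in this way is not given here. For Mt1, and for Mt2 and Slc30a10 below, such a separation is therefore description only. The log2 ratios were -3.24 and -2.57 at day 5 and -2.99 and -3.95 at day 8. Each day thus showed the fall in both dye orientations. The mean was -2.91 at day 5 (SE 0.28, adjusted p = 0.00836 in limma) and -3.47 at day 8 (SE 0.28, adjusted p = 0.00758 in limma). Mt1 signal in Cux2 siRNA livers thus stood at 13.3% of the control signal at day 5 and at 9.05% at day 8. Over both days Mt1 fell by 3.19 on the log2 scale (95% interval -3.69 to -2.68, adjusted p = 0.00165 in limma). With day 5 replicate 2 left out, the remaining day 5 value of -3.24 no longer passed (adjusted p = 0.0501 in limma).

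Mt2, the neighbour of Mt1 and its co-induced partner, was also measured by 1 probe. Its normalized signal was 38883 and 38098 in the Cux2 siRNA pools of day 5 and 40225 and 8610 in those of day 8. The non-specific siRNA channels read 355570, 328500, 380650 and 368440. Again no Cux2 siRNA pool reached any control channel, and the second day 8 pool stood apart from the other 3. The log2 ratios were -3.19 and -3.11 at day 5 and -3.24 and -5.42 at day 8. The fall was again present in both dye orientations of each day. The mean was -3.15 at day 5 (SE 0.50, adjusted p = 0.0217 in limma) and -4.33 at day 8 (SE 0.50, adjusted p = 0.0133 in limma). Mt2 signal in Cux2 siRNA livers was 11.3% of control at day 5 and 4.97% at day 8. Over both days Mt2 fell by 3.74 on the log2 scale (95% interval -4.67 to -2.81, adjusted p = 0.00354 in limma). At day 5 Mt2 no longer passed without replicate 1 (-3.11, adjusted p = 0.110) or without replicate 2 (-3.19, adjusted p = 0.132). Without day 8 replicate 2 the day 8 value was -3.24, and without day 8 replicate 1 it was -5.42.

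The calls, more than the values, depended on the normalization. With median centring in place of loess, Mt1 passed only over both days, and Mt2, at -3.68 over both days, did not pass (adjusted p = 0.0779 in limma) and was also lost at each day. Mt2 was lost at both days without background subtraction, and at day 5 with the scanner's processed signals or the authors' deposited ratios.

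**Figure D1:**
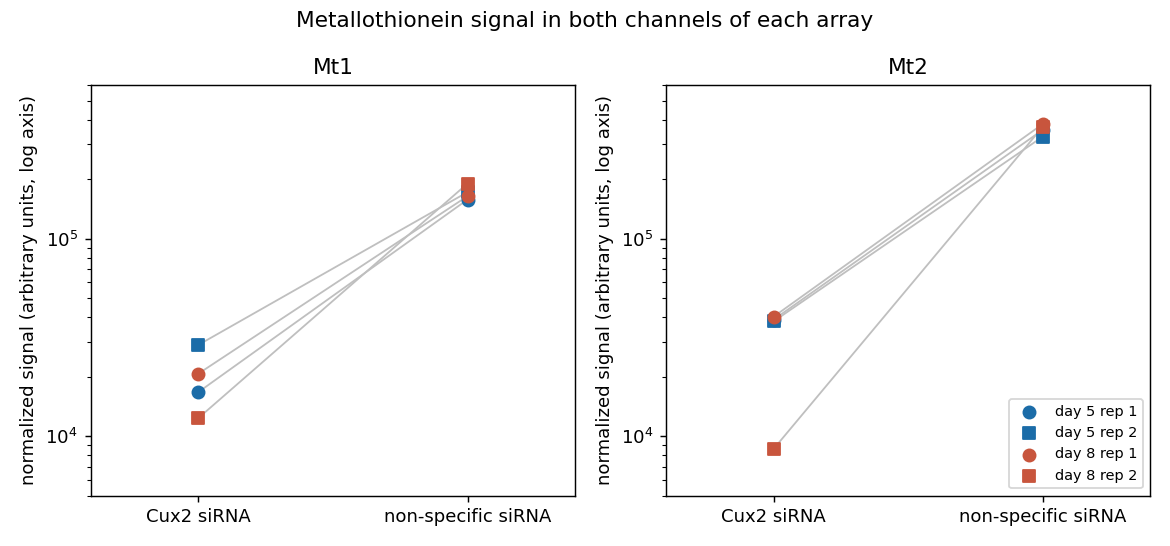
Normalized signal (log axis, arbitrary units) of the Mt1 and Mt2 probes in the Cux2 siRNA channel (left) and the non-specific siRNA channel (right) of each of the 4 arrays, with a line joining the channels of 1 array. The Cux2 siRNA points lie at 12333 to 28961 for Mt1 and 8610 to 40225 for Mt2, below control points of 157760 to 190120 for Mt1 and 328500 to 380650 for Mt2.

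The spread of the metallothionein signal among the Cux2 siRNA pools rested, for Mt2, on 1 array. For Mt1 the highest signal was 2.35 times the lowest in Cux2 siRNA channels and 1.21 times in non-specific siRNA channels. For Mt2 the ratio was 4.67 in Cux2 siRNA channels and 1.16 in non-specific siRNA channels. Without day 8 replicate 2 the ratio for Mt2 was 1.06 in Cux2 siRNA channels and 1.16 in non-specific siRNA channels, and that for Mt1 was 1.73 in Cux2 siRNA channels and 1.09 in non-specific siRNA channels. The control channels came from only 2 pools, so this spread was not tested between groups.

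The falls at the 2 days could not be told apart. For Mt1 the difference, day 8 minus day 5, was -0.56 (SE 0.39, unadjusted p = 0.212 in limma), and for Mt2 it was -1.18 (SE 0.71, unadjusted p = 0.160 in limma). None of the 8 genes passed for this difference, and 0 of all genes tested did (0%), with 620 genes at an unadjusted p under 0.05. The Mt2 difference was -0.09 without day 8 replicate 2 and -2.27 without day 8 replicate 1. Within an array, the Mt2 log2 ratio minus the Mt1 log2 ratio was 0.05 and -0.54 at day 5 and -0.26 and -1.47 at day 8. The mean was -0.55 ± 0.66 (SD, n = 4 arrays), below 0 on 3 of 4 arrays, and an exact two-sided sign-flip permutation test gave p = 0.25. With 4 arrays this test cannot give less than 0.125, so it could not decide whether the genes differ.

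Mt1 and Mt2 lie side by side on chromosome 8 of the mouse, and the promoters of these 2 genes, which fell together, are printed here with that of Slc30a1, an MTF-1 target that shares their element but whose probes disagreed. Sequences are RefSeq GRCm38.p6 windows on the plus strand, 250 bases before to 50 after the annotated start, at chr8:94178839-94179138 for Mt1, chr8:94172368-94172667 for Mt2 and chr1:191906531-191906830 for Slc30a1. Capitals mark the metal response element core, written as TGCACNC or TGCGCNC and searched on both strands.
Mt1: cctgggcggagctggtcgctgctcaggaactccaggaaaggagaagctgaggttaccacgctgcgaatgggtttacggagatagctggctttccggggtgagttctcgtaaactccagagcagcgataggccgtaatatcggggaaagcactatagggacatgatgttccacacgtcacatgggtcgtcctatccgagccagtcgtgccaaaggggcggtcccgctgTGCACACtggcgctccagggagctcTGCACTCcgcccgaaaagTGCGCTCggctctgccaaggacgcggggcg
Mt2: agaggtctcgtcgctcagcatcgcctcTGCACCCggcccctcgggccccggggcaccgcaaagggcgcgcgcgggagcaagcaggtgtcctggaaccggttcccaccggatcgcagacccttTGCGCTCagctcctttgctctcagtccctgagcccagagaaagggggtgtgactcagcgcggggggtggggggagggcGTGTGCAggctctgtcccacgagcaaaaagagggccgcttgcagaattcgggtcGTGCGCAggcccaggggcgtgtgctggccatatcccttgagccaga
Slc30a1: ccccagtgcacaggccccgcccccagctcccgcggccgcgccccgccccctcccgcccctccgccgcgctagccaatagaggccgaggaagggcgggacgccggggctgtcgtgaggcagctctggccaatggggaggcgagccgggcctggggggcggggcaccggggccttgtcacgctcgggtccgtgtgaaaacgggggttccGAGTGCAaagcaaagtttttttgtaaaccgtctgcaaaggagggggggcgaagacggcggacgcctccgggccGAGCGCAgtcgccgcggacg
The Mt1 window held 3 matches, the Mt2 window 4 and the Slc30a1 window 2, none overlapping another. Of 32851 promoters of this length, 25.7% held at least 1 match, 7.11% at least 2, 1.97% at least 3 and 0.517% at least 4. The Mt1 matches began at positions -23, 3 and 21 from the start, all on the plus strand. Positions give the first base along the plus strand, with the annotated start as 1. Those of Mt2 began at -223 and -128 on the plus strand and at -50 and 5 on the minus strand, and those of Slc30a1 at -43 and 31 on the minus strand. Promoters were matched for 6 of the 8 genes. Slc30a10, whose log2 ratios differed in sign between pools, held 3 matches, of which 1 pair overlapped. Mtf1 held 0 matches, and Slc39a8 held 0 at the first and 1 at the second of its annotated starts. Mt3 and Mt4, which did not pass, held 1 match each. A match describes letters in a window and is not evidence of binding.

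The other metallothionein genes of the chromosome 8 cluster did not pass, but their probes were dim. Mt3, the growth inhibitory metallothionein of brain, had log2 ratios of -0.03, 0.02, -0.14 and -0.13, with a mean over both days of -0.07 (95% interval -0.19 to 0.05, adjusted p = 0.330 in limma). Mt4, the metallothionein of stratified epithelia, had -0.57, 0.10, -0.52 and 0.54, with a mean of -0.11 (95% interval -0.65 to 0.43, adjusted p = 0.739 in limma). The Mt3 signals were 160 to 169 in Cux2 siRNA channels and 164 to 180 in non-specific siRNA channels, and those of Mt4 80.9 to 109 in Cux2 siRNA channels and 75.1 to 131 in non-specific siRNA channels. Probes not well above background, such as that of Slc39a5, read 65.8 to 68.9 in Cux2 siRNA channels, so a fall of the size of Mt1 or Mt2 could not have been seen for Mt3 or Mt4. The sign of Mt4 followed the replicate number, which is also the dye orientation. Beyond the cluster, in the order of protein-coding genes in the GRCm38.p6 gene table, Bbs2 (0.17) on one side and Nup93 (-0.14) on the other did not pass. Farther out, Ogfod1 rose (0.36, adjusted p = 0.00732 in limma), Nudt21 fell (-0.21, adjusted p = 0.0436 in limma) and Herpud1 (0.01) did not pass. Slc12a3 and Nlrc5 were not measured here. None of the measured genes named here beyond the cluster had a change near the size of Mt1 and Mt2.

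The genes whose log2 ratios over the 4 arrays lay nearest to those of Mt1 and Mt2, by Euclidean distance among 13828 named genes, were mostly acute phase and interferon-induced genes. Nearest to Mt1 was Orm3, an orosomucoid gene, at a distance of 0.38, and its array values were -3.41, -2.77, -3.13 and -3.72. Next came the interferon-induced Usp18 (0.88) and Rtp4 (0.91) and then A2m, which encodes alpha-2-macroglobulin (0.97). Nearest to Mt2 were the orosomucoid genes Orm2 (1.07) and Orm1 (1.50), the serum amyloid gene Saa3 (1.55) and Mt1 itself (1.59). Orm2 had log2 ratios of -3.07, -3.60, -3.51 and -4.52, so it too was lowest on the second day 8 array. Its replicate 2 array was the lower on both days, and replicate number is also the dye orientation. These distances describe likeness over 4 arrays, and any gene lowered by a like amount on each array lies near.

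**Figure D2:**
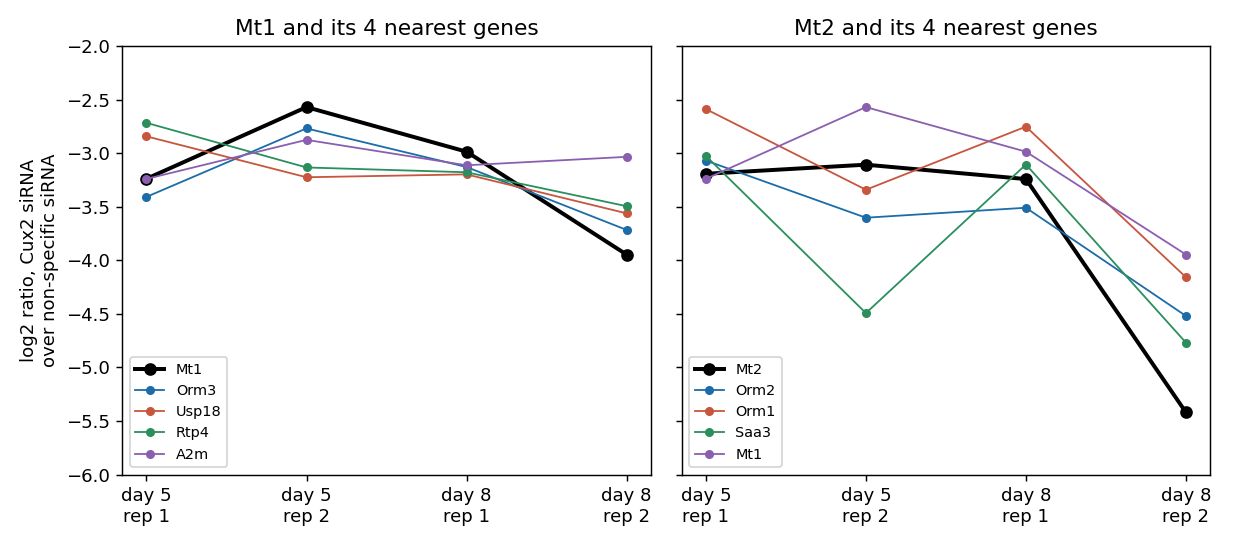
Log2 ratio, Cux2 siRNA over non-specific siRNA, on each of the 4 arrays for Mt1 (left panel) and Mt2 (right panel) in black and the 4 genes nearest to each in colour; lines join the values of 1 gene and mark no order in time. Orm3 stays within 0.38 of Mt1 in total distance, whereas Mt2 at -5.42 on day 8 replicate 2 lies below its nearest gene Orm2 at -4.52.

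The regulator Mtf1 gave no change that both of its probes shared. The brighter probe had log2 ratios of -0.17, -0.07, -0.25 and 0.00, signals of 675 to 909 in Cux2 siRNA channels and 803 to 919 in non-specific siRNA channels, and a mean over both days of -0.12 (95% interval -0.29 to 0.04, adjusted p = 0.220 in limma). The dimmer probe of Mtf1 had 0.40, 0.24, 0.19 and 0.20, with a mean of 0.26 that passed when each probe was tested on its own (adjusted p = 0.0223 in limma over all probes). It lay above the brighter probe on 4 of 4 arrays, by 0.38 ± 0.16 (SD, n = 4). The exact two-sided sign-flip permutation test gave p = 0.125, the smallest that 4 arrays allow. With the probes on opposite sides of 0, no direction can be given for the gene.

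A list drawn up around MTF-1 held Mtf1, reported targets and the like-named Mtf2. Of its 9 measured genes 1 rose and 4 fell over both days, where 31.1% of all genes passed and 16.3% fell, and its median was -0.19 against 0.00 for all genes. Csrp1, which encodes a LIM domain protein, had log2 ratios of -0.85, -0.84, -0.94 and -1.35 and fell by 1.00 (SE 0.08, adjusted p = 0.00258 in limma). The selenoprotein genes Selenow (-0.44) and Selenoh (-0.37) and the iron exporter gene Slc40a1 (-0.32) fell by less. The 1 gene that rose was Mtf2, known as a Polycomb-associated protein and not as an MTF-1 target, by 0.34 (adjusted p = 0.00917 in limma). The values of the glutathione synthesis gene Gclc (-0.19), the haem oxygenase gene Hmox1 (-0.04) and the placental growth factor gene Pgf (-0.05) did not pass. None of these genes fell by as much as Mt1 or Mt2.

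None of the 3 importers passed on its brightest probe. Slc39a14, the ZIP14 importer of zinc, iron and manganese, had log2 ratios of -0.07, 0.19, 0.33 and -0.09, with a mean over both days of 0.09 (95% interval -0.15 to 0.33, adjusted p = 0.520 in limma). Its normalized signal was 9005 to 12289 in Cux2 siRNA channels and 8839 to 10753 in non-specific siRNA channels, and the groups overlapped. The dimmer Slc39a14 probe had -0.35, -0.26, -0.16 and -0.58 and a mean of -0.34, which passed on its own (adjusted p = 0.0371 in limma over all probes). It lay below the brighter probe on 4 of 4 arrays, by 0.43 ± 0.10 (SD, n = 4, exact two-sided sign-flip permutation p = 0.125), so no direction can be given for the gene.

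Slc39a4, the ZIP4 importer best known from intestinal zinc uptake, had 1 probe. Its log2 ratios were 0.26, -0.07, 0.19 and 0.04, and the mean over both days was 0.11 (95% interval -0.09 to 0.30, adjusted p = 0.351 in limma). Signals of 22850 to 27008 in Cux2 siRNA channels overlapped those of 22087 to 26230 in non-specific siRNA channels. Slc39a8, the ZIP8 importer of zinc and manganese, had log2 ratios of -0.06, -0.21, -0.20 and -0.28 on its brighter probe, below 0 on every array. Signals of 4784 to 5669 in Cux2 siRNA channels overlapped those of 5529 to 5974 in non-specific siRNA channels. The mean was -0.19 (95% interval -0.33 to -0.05), just outside the threshold (adjusted p = 0.0548 in limma). The dimmer Slc39a8 probe averaged -0.17 and did not pass either (adjusted p = 0.226 in limma over all probes), and the difference between the probes changed sign between arrays (exact sign-flip permutation p = 0.875).

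The exporter Slc30a1, the ZnT1 protein of the plasma membrane, fell on 1 of its 2 probes and did not pass on the other. The brighter probe had log2 ratios of -0.01, 0.18, 0.02 and 0.06, signals of 5443 to 5993 in Cux2 siRNA channels and 5141 to 5930 in non-specific siRNA channels, and a mean over both days of 0.06 (95% interval -0.08 to 0.21, adjusted p = 0.468 in limma). The dimmer probe had -0.48, -0.40, -0.44 and -0.49, with a mean of -0.45 (95% interval -0.58 to -0.33, adjusted p = 0.00423 in limma over all probes). The dimmer probe had the smallest SE over both days among the 13 probes (0.05), and the probes differed on 4 of 4 arrays, by -0.52 ± 0.07 (SD, n = 4, exact two-sided sign-flip permutation p = 0.125). With the mean of both probes, Slc30a1 fell by 0.20 over both days (adjusted p = 0.0406 in limma), where the brighter probe alone had a positive value. A fall of Slc30a1 alongside Mt1 and Mt2 therefore rests on the choice of probe.

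Slc30a10, which is known chiefly as a manganese exporter of liver and brain, had the highest mean over both days of the 8 genes. Its normalized signal was 3371 and 3432 in Cux2 siRNA pools of day 5 and 2624 and 2217 in those of day 8. The non-specific siRNA channels read 2090, 2496, 2056 and 2654. Both day 5 pools lay above every control channel, and the day 8 pools lay within the control range. The log2 ratios were 0.69 and 0.46 at day 5 and 0.35 and -0.26 at day 8, and the second probe followed closely with 0.75, 0.34, 0.30 and -0.23. The mean at day 5 was 0.57 (SE 0.16, adjusted p = 0.0792 in limma), which did not pass. The day 8 pools lay on either side of 0. The mean at day 8 was 0.05, and the difference, day 8 minus day 5, was -0.53 (95% interval -1.13 to 0.07, unadjusted p = 0.0728 in limma). The day 5 value passed without day 8 replicate 1 (adjusted p = 0.0343 in limma) and without day 8 replicate 2 (adjusted p = 0.0344 in limma), since the spread is shared between days. The mean over both days, 0.31 (adjusted p = 0.108 in limma), was 0.46 and passed without day 8 replicate 2 (adjusted p = 0.0345 in limma).

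With each of the 13 probes tested on its own, 4 passed at day 5, 3 at day 8 and 5 over both days (38.5%). Of all probes, 17.6% passed at day 5, 14.6% at day 8 and 31.8% over both days. Over both days they were the probes of Mt1 and Mt2, the dimmer probes of Slc39a14 and Slc30a1, which fell, and the dimmer probe of Mtf1, which rose. Of the 5 genes with 2 probes, 3 had probes that differed in the same direction on 4 of 4 arrays (Mtf1, Slc39a14 and Slc30a1), and each comparison gave an adjusted p of 0.208 over the 5 pairs by the exact test. With 4 arrays that test cannot give less than 0.125 before adjustment, so no pair could have passed. Slc39a8 and Slc30a10 had differences that changed sign between arrays.

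**Figure D3:**
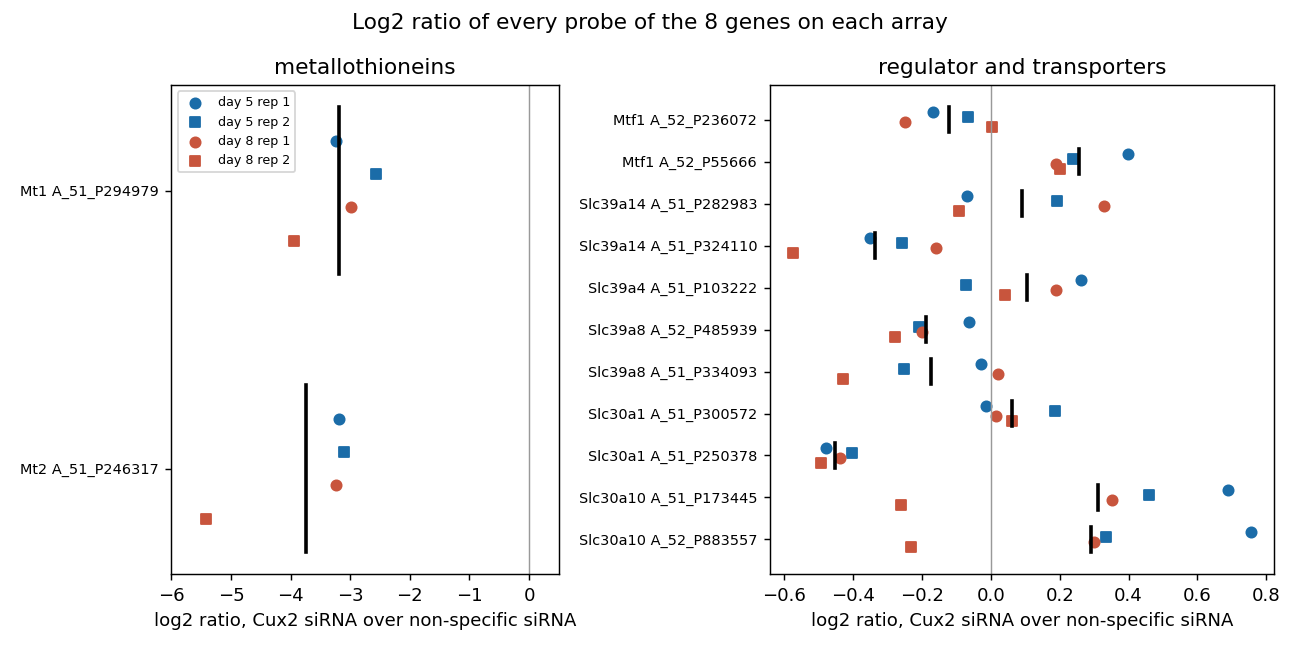
Log2 ratio, Cux2 siRNA over non-specific siRNA, of each of the 13 probes on each of the 4 arrays, with a black bar at the mean, metallothioneins on the left and the regulator and transporters on the right with a narrower axis (brighter probe above the dimmer one). Mt1 and Mt2 lie between -5.42 and -2.57, all other values lie between -0.58 and 0.75, and the paired probes of Mtf1, Slc39a14 and Slc30a1 sit apart.

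Among the other metallothionein, ZIP and ZnT genes, 18 of 21 were measured, and over both days 1 rose, 1 fell and 16 did not pass. Their median was -0.04. Of all genes tested, 31.1% passed over both days and 16.3% fell. Slc30a4, the ZnT4 transporter that loads vesicles with zinc, had log2 ratios of 0.41 and 0.58 at day 5 and 0.31 and 0.42 at day 8. It rose at day 5 by 0.49 (adjusted p = 0.0222 in limma), at day 8 by 0.37 (adjusted p = 0.0475 in limma) and over both days by 0.43 (SE 0.06, adjusted p = 0.00739 in limma). It was the only other gene of these families to pass at either day. Slc39a11, the ZIP11 importer, had -0.37, -0.61, -0.37 and -0.99 and fell over both days by 0.58 (SE 0.12, adjusted p = 0.0219 in limma). It no longer passed without day 5 replicate 1 (-0.64, adjusted p = 0.0508 in limma) or without day 5 replicate 2 (-0.52, adjusted p = 0.0861 in limma). At -0.28, Slc30a7, a ZnT of the secretory pathway, came next in size but did not pass (adjusted p = 0.0592 in limma). Under median centring neither Slc30a4 (0.39, adjusted p = 0.337 in limma) nor Slc39a11 (-0.62, adjusted p = 0.373 in limma) passed, and Slc39a11 was also lost without background subtraction.

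The remaining importers, with means over both days, were Slc39a1 (0.12), Slc39a2 (0.02), Slc39a3 (-0.14), Slc39a5 (-0.04), Slc39a6 (0.03), Slc39a7 (-0.07), Slc39a10 (0.07), Slc39a12 (0.10) and Slc39a13 (0.09). The remaining exporters were Slc30a5 (-0.06), Slc30a6 (-0.12), Slc30a8 (-0.04) and Slc30a9 (0.07). All of these values lay within 0.15 of 0 and none passed. Slc39a6 had log2 ratios of 0.23 and 0.08 at day 5 and -0.09 and -0.09 at day 8, a difference of -0.24 that did not pass (unadjusted p = 0.0660 in limma). Slc39a5 and Slc30a8 were not well above background in any Cux2 siRNA channel, so there they have only a bound. Slc39a12 and Slc39a2 were also dim, at 63.0 to 70.8 and 69.1 to 117 in non-specific siRNA channels. A large fall could not have been seen for either. Slc30a3 was not well above background in any reading, and Slc39a9 and Slc30a2 had no named probe.

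**Figure D4:**
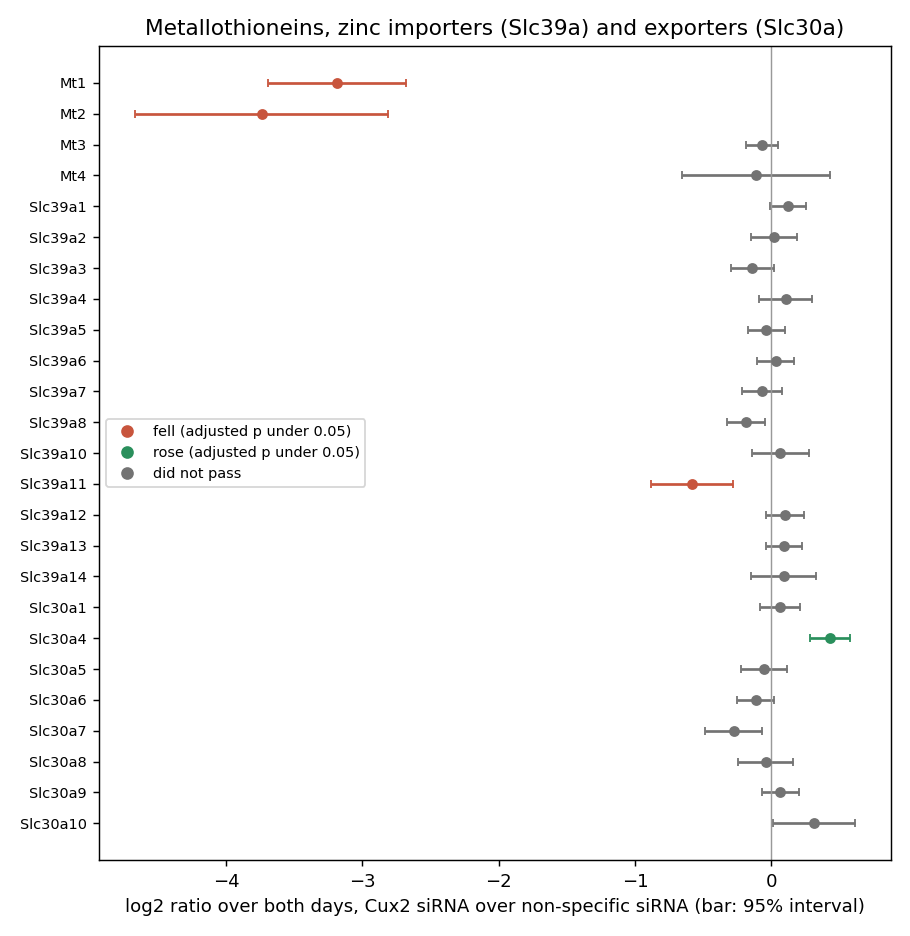
Mean log2 ratio over both days, Cux2 siRNA over non-specific siRNA, with its 95% interval (limma, 4 arrays) for the 25 measured metallothionein, Slc39a and Slc30a genes on their brightest probes; red genes fell, green genes rose and grey genes did not pass. Mt2 at -3.74 and Mt1 at -3.19 stand far to the left of Slc39a11 at -0.58, and Slc30a4 at 0.43 is the only gene that rose.

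Genes of the other known inducers of metallothioneins were set beside these values. In a list of 18 interleukin-6, STAT3 and acute phase genes, 13 fell, 0 rose and 5 did not pass over both days, with a median of -1.68 against 0.00 for all genes. The 5 that did not pass were Il6ra (-0.01), Jak1 (-0.12), Cebpb (-0.17), Fgb (-0.91) and Hamp. Of these, Hamp was higher on all 4 arrays (1.27, 0.37, 1.50 and 0.28), with a mean of 0.85 (adjusted p = 0.0594 in limma). The array medians of that list were -1.31 and -2.01 at day 5 and -1.22 and -2.49 at day 8. The serum amyloid genes Saa1 (-4.39) and Saa3 (-3.85), the lipocalin gene Lcn2 (-4.15) and Orm2 (-3.68) fell most. For all 4 the second day 8 array was lowest, as for Mt1 and Mt2. All 4 were also lower on day 5 replicate 2 than on day 5 replicate 1, Saa1 at -5.06 against -3.55. Between those 2 arrays Mt1 went the other way (-2.57 against -3.24) and Mt2 differed little (-3.11 against -3.19). For Saa1, Saa3, Lcn2 and Orm2 replicate 2 was thus the lower array on both days, and replicate number is also the dye orientation. A part of the dyes in this shared low was not tested. In a list of 10 glucocorticoid response genes, 8 were measured, 1 rose, 2 fell and the median was -0.02. For both lists, the shares of all genes tested over both days were 31.1% passing and 16.3% falling. With 8 measured genes, the glucocorticoid counts are too small to set against these shares. Tsc22d3, which encodes the glucocorticoid-induced leucine zipper, rose by 0.84, whereas Hsd11b1, which reactivates glucocorticoids, fell by 0.53 and the receptor gene Nr3c1 by 0.20. These lists were put together with earlier results of the arrays known, so the acute phase counts are no independent support.

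Most measured markers of macrophages, neutrophils and lymphocytes fell, whereas those of other cell types were mixed or mostly did not pass. The part of any of these cells in the metallothionein result was not tested. Over both days 31.1% of all genes tested passed and 16.3% fell, and the small lists below are to be read beside these shares. Of 11 measured macrophage markers, 8 fell over both days, with a summed signal of 43109 to 69113 in Cux2 siRNA channels and 83173 to 91248 in non-specific siRNA channels. Of 6 neutrophil markers, 4 fell (summed signal 1985 to 3533 in Cux2 siRNA channels and 11904 to 16917 in non-specific siRNA channels). Of 8 lymphocyte markers, 5 fell (1678 to 2039 in Cux2 siRNA channels and 2869 to 3603 in non-specific siRNA channels). All measured markers of these lists were above background in some reading. Stellate cell markers were mixed, with 5 of 8 lower and 2 higher among those that passed (33409 to 49786 in Cux2 siRNA channels and 59632 to 63177 in non-specific siRNA channels). Endothelial markers gave 2 rises and 3 falls of 8, bile duct markers 1 rise of 6 and red cell markers 1 rise of 5. Exocrine pancreas markers, of which 3 of 10 fell, had array medians of -2.74, -3.94, 0.64 and -3.69 and summed signals of 12324 to 46740 in Cux2 siRNA channels and 29947 to 76663 in non-specific siRNA channels. In the same array order, day 5 and then day 8, Mt1 stood at -3.24, -2.57, -2.99 and -3.95. Mt2 stood at -3.19, -3.11, -3.24 and -5.42. A relation between these markers and the metallothioneins was not tested.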

How the data were processed

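RNA was extracted with Trizol, amplified and labelled with Alexa dyes, per the labels' protocols. The deposited intensity values are median spot and local background signals per channel, made, per the file headers, with version 10.7.1.1 of Agilent Feature Extraction; the deposited processed signals, also intensity values, were used in an alternative. In the authors' table of the series, values are log10 ratios, equal within 1e-05 to the scanner's after turning the sign by dye, for 45018 features on each array, so its direction is Cux2 siRNA over non-specific siRNA. Column medians were 0. Deposited p-values of single spots went unused.

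In limma 3.58.1 (R 4.3.3), background was corrected by normexp (offset 50) and ratios were normalized by loess within arrays, with 1639 control spots at weight 0 and outlier spots left out. Signals quoted per channel were also scaled between arrays (Aquantile). RefSeq accessions in a GRCm38.p6 gene table named 23374 of 41174 probes (56.8%); the 31764 probes well above background in at least 2 of 8 readings were kept, and the brightest stood for its gene. One fit (lmFit, eBayes) over the 4 arrays, on 1 slide, gave day 5, day 8, both days together and day 8 minus day 5, with 2 residual and 2.78 prior degrees of freedom. Precision is limited by the number of arrays. The procedure was tested on simulated data. Exact tests used SciPy 1.17.1.

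The genes and lists were chosen with earlier results of these data known. Also named are the measured genes of both transporter families, up to 4 passing genes of each context list, the 4 genes nearest to each passing gene, and, after their values were seen, chromosomal neighbours and further list members. Same-numbered replicates share a dye orientation; with 2 pairs (r = 0.50 for their deviations over 25090 genes) they were not taken as pairs. Alternatives were other background, normalization, filter and probe rules, the authors' ratios, a replicate block, each array left out and, chosen after seeing the data, each probe on its own.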

Additional observations from a re-analysis of the deposited data

How the results depend on the processing

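Mt1 over both days lay between -3.43 and -2.95 and passed under each of 12 alternative settings. Mt2 over both days lay between -4.28 and -3.20 and was lost under median centring (-3.68, adjusted p = 0.0779 in limma). Under median centring in place of loess, 0, 0 and 1 of the 8 genes passed at day 5, day 8 and over both days, and 5, 3 and 269 of all genes. Mt1 kept its size at day 5 (-2.92, adjusted p = 0.214) and day 8 (-3.42, adjusted p = 0.183), as did Mt2 at day 5 (-3.13, adjusted p = 0.374) and day 8 (-4.24, adjusted p = 0.293), so the precision and not the value moved. Without background subtraction, 1 of the 8 passed at day 5 and 1 at day 8, Mt2 being lost (adjusted p = 0.0707 and 0.0511), and 2105 of all genes passed at day 8. With the scanner's processed signals 1 of the 8 and 2028 of all genes passed at day 5 and 1476 at day 8; with the authors' deposited ratios these counts were 1, 2015 and 1467. The replicate block, which is also a dye block, gave 4 of the 8 over both days, adding Slc39a8 (adjusted p = 0.0215) and Slc30a10 (adjusted p = 0.0142), and 8239 of all genes at day 5 and 7453 at day 8. With each probe on its own, 4 genes had a passing probe at day 5 and 5 over both days. Slc30a1 turned to -0.20 over both days with the mean of its probes (adjusted p = 0.0406). Leaving out 1 array gave 0 to 3 of the 8 at day 5, 2 at day 8 and 2 to 3 over both days, and 246 to 3561 of all genes at day 5, 137 to 2497 at day 8 and 3902 to 5469 over both days; a day left with 1 array is assumed to vary like the other. No other value that passed changed sign; values that did not pass did so in 32 combinations of a value and a setting. Other causes were not tested.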
